A study of Mus musculus with 46 samples.

Results

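The general germ cell and pluripotency genes are 34 named genes that mark germ cells of the fetal gonad without regard to sex, or that maintain the pluripotency network these cells share with embryonic stem cells. They were taken by symbol from the deposited tables, which measure whole mouse gonads at E12.5, in mid-gestation. Of the 34 genes 33 were among the 33331 gene rows. Gcna was not analysed here. The series compares XX and XY gonads that are wild type (WT) or carry mutations in Enh13, which enhances Sox9 from a distance, and Sox9 drives testis differentiation. The XX groups were WT (n = 3), a 1 bp insertion in heterozygotes (1bp-ins-het, n = 3) and homozygotes (1bp-ins-hom, n = 5), a 3 bp deletion in heterozygotes (3bp-del-het, n = 3) and homozygotes (3bp-del-hom, n = 5), and 3bp-12bp-del-hom (n = 5). The XY groups had the same genotypes and sizes except for 3bp-12bp-del-hom (n = 3). The labels do not say whether 3bp-12bp-del is one allele with both deletions or a pair of alleles, nor which strain the mice are. Libraries were made from polyadenylated RNA of gonad pairs. The labels do not say whether the pairs of a group came from separate embryos or litters, so p-values measure only the spread between these libraries, which may in part be technical.

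Germ cells arise as primordial germ cells outside the embryo proper, are specified there by Prdm1, Prdm14 and Tfap2c, and migrate into the gonad under the guidance of Kit signalling. They keep the pluripotency factors Pou5f1, Nanog and Sall4 and the RNA-binding proteins Lin28a and Dnd1 during migration. After arrival they switch on Dazl, which licenses them for sexual differentiation, and Ddx4 and the piRNA genes, whose products assemble in germ granules and silence transposons. Pluripotency genes are later shut off in both sexes, in the ovary as meiosis begins and in the testis as the cells enter mitotic arrest. In RNA from whole gonads, fewer germ cells and less RNA per germ cell cannot be told apart. Ddx4 was therefore used as a reference for the germ cell signal of a library.

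Germ cell genes that are silent in other cell types often carry the letters CACGTG in their promoters, a motif known to be bound by factors that recruit a variant Polycomb complex. The promoters below are shown because most members moved together from library to library, Fkbp6 closely and Nanog, Tdrd1 and Tdrd9 less so. They were also chosen to compare some piRNA genes that hold this motif with a pluripotency gene that does not. Each is the 250 bases before a start site in RefSeq (GRCm38.p6), printed 5′ to 3′ on the strand of the gene, with CACGTG in capitals. Fkbp6, a co-chaperone of the piRNA pathway, is on the minus strand at chr5:135350045-135350294. Tdrd9, a helicase of the piRNA pathway, is on the plus strand at chr12:111971309-111971558. Tdrd1, a tudor protein of the germ granule, is on the plus strand at chr19:56825959-56826208. Nanog, a homeobox factor of the pluripotency network, is on the plus strand at chr6:122707239-122707488.
Fkbp6: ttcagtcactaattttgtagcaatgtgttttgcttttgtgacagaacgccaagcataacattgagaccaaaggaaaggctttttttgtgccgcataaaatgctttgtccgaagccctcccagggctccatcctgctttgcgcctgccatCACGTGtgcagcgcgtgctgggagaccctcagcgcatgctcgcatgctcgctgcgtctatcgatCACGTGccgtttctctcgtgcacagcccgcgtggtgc
Tdrd9: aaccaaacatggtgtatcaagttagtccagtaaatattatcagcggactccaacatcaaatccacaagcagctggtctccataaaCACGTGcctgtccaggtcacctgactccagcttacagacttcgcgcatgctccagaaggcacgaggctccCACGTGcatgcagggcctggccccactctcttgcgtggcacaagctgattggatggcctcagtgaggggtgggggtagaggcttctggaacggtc
Tdrd1: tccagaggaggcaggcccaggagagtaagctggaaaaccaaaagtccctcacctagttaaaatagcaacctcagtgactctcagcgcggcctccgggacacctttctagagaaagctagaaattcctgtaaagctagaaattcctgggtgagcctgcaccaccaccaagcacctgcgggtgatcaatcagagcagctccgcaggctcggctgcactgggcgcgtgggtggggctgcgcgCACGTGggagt
Nanog: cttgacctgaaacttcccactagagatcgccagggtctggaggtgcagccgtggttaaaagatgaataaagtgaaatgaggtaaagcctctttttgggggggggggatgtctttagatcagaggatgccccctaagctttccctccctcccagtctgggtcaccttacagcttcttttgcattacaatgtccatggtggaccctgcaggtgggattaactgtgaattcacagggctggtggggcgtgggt
The printed stretch of Fkbp6 holds the motif at -101 and -37 from its start site, that of Tdrd9 at -165 and -95, and that of Tdrd1 at -11. In the whole window, 250 bases before to 50 after the start, CACGTG was found on either strand in 8 of the 21 members that RefSeq's table matched, which were Brdt, Ddx4, Fkbp6, Lin28b, Mael, Mov10l1, Tdrd1 and Tdrd9. Counted by window it was in 10 of 29 windows of members and in 7.15% of all 32851 windows. Of these 8 genes 5 belong to the piRNA group, and Lin28b is a pluripotency gene. The piRNA genes Tdrd5 and Tdrd12 were matched and had 0 copies, so the motif did not divide the 2 groups. The letters GGCGGGAA were found in 1 member, Ddx4, and in 2.19% of all windows, and the octamer ATGCAAAT in 0 members and 1.74% of all windows. A match is a description of the sequence, and no binding was measured here.

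Apart from Tdrd6, the members were expressed highly enough to be tested in every comparison, at levels that differed widely between genes. On the length-scaled level (TPM), the median over 46 libraries was highest for Dppa5a, an RNA-binding protein of pluripotent cells, at 304. It was 95.4 for Ifitm3, a membrane protein of early germ cells, 92.9 for Pou5f1 and 90.3 for Utf1, a chromatin protein of pluripotent cells. Dppa3, which protects methylation in the early embryo, had 79.4 and Dazl 30.0. Ddx4, an RNA helicase used as a marker of germ cells, had 18.3 and ranged from 8.10 to 38.9 between libraries. Nanog had 14.0 and Tfap2c 8.87. The lowest were Tdrd1 at 1.13, Tdrd9 at 0.34 and Tdrd6 at 0.01. Tdrd6, a tudor protein of later germ granules, was below the expression filter in every comparison, so 32 members were tested. Levels that follow are library-scaled CPM (counts scaled to a fixed library total), which compare libraries but not genes.

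Library totals ran from 29909111 to 46150400 estimated counts. Of a list of testis somatic genes 5 of 5 were higher, and of a list of ovary somatic genes 5 of 5 lower, in XY than in XX gonads without a homozygous mutation. In 4 libraries the markers of adjoining tissue were high, and these are XY WT replicate 3, XX WT replicate 1, XX 3bp-del-hom replicate 4 and XY 3bp-del-het replicate 1. The mean log2 CPM of 8 mesonephros genes was 4.93, 3.40, 4.25 and 0.638 in them, and that of 6 adrenal genes was -1.08, 3.46, 0.988 and 2.55. They were taken by rank and not by a cutoff, so other libraries may also hold such tissue. An XX 1bp-ins-het library had a mesonephros mean of 3.15, and one of that group had an adrenal mean of 1.73. Counts of members without the 4 libraries are given below.

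**Figure D1:**
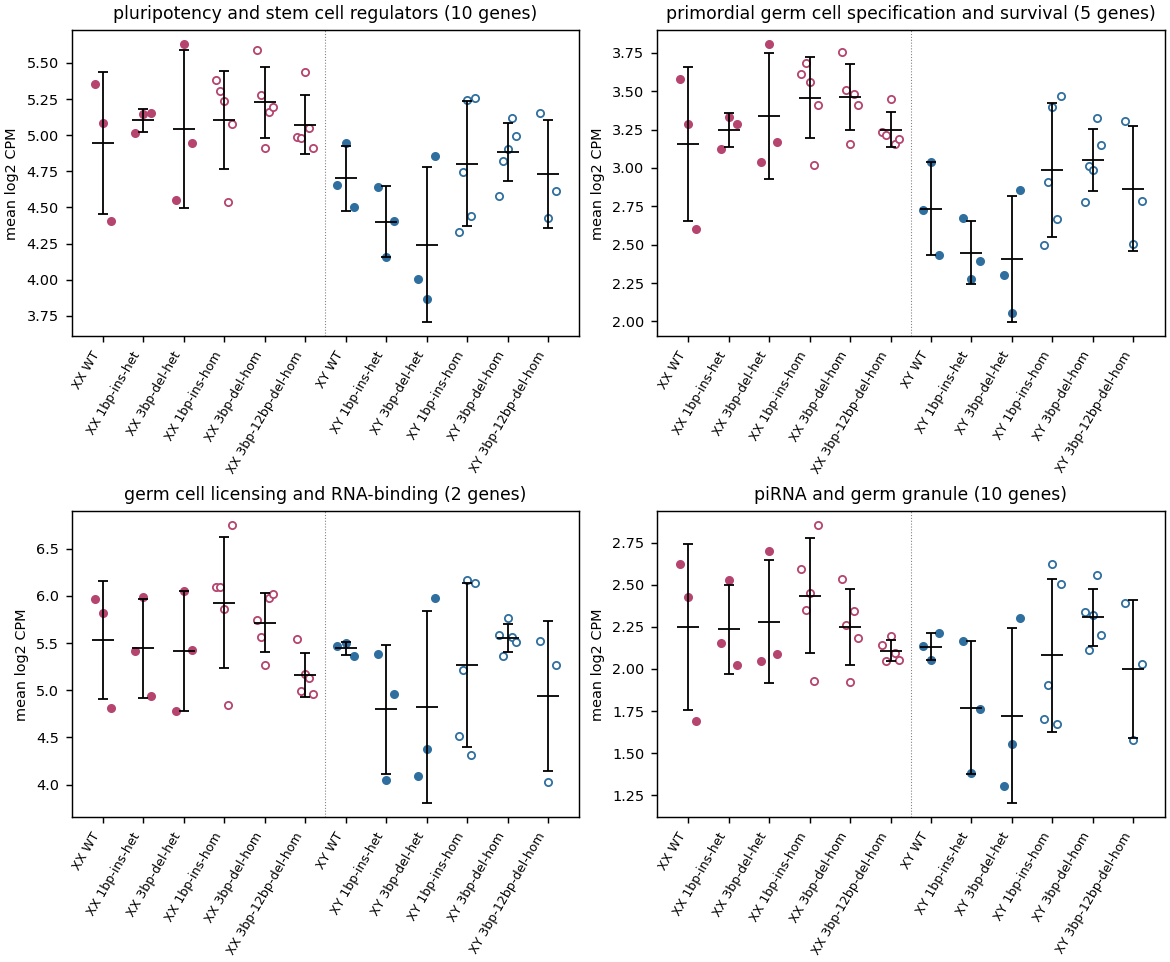
Mean log2 CPM of the members of 4 roles in each of the 46 libraries, by group. Points are libraries (filled, WT and heterozygous; open, homozygous), and the bar and whiskers are the mean and SD of the group. The specification genes of the XY WT and heterozygous libraries sit between 2.05 and 3.04, and those of the XX ones between 2.60 and 3.81, while the licensing genes of the 2 sexes overlap over most of their range.

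Libraries of one group differed in germ cell signal, and most members followed it. Ddx4 itself ran from 23.7 to 63.8 CPM within the 3 libraries of XX 3bp-del-het, and from 25.6 to 78.9 CPM within the 5 of XX 1bp-ins-hom. With the group means removed, 27 of the 32 other members were positively correlated with Ddx4 over the 46 libraries, which share their library's scaling with Ddx4 (adjusted p under 0.05 in a 2-sided permutation test within groups, 65 relations adjusted together). The median r of the 32 was 0.80. The lowest r among the 27 was 0.44, that of Tdrd9, a value reached by 7.93% of all 17032 genes tested in the same way, whose median r was -0.03. Dazl and 6 piRNA genes had the highest values, while the piRNA genes Tdrd1 (r = 0.485, rho = 0.68) and Tdrd9 (rho = 0.44) were among the lowest of the 27 (permutation p = 0.0001 and 0.00929 for r). Dazl had r = 0.94 (rho = 0.90, permutation p = 1e-05 for both, the smallest that 100000 permutations can give, adjusted p = 4.33e-05 for r and 5e-05 for rho). Piwil2, a PIWI protein that binds piRNAs, had r = 0.93 and rho = 0.86, Rnf17 had r = 0.93 and rho = 0.89, and Tdrd5 had r = 0.92 and rho = 0.86, with the same permutation p for each. Of the pluripotency genes, Pou5f1 had r = 0.83 (rho = 0.77, permutation p = 1e-05) and Nanog r = 0.70 (rho = 0.63, permutation p = 8e-05 and 0.00026). These values remained between 0.68 and 0.93 when the 2 libraries farthest from the median of Ddx4 were left out.

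The 5 other members did not pass. Pecam1, an adhesion protein that germ cells share with endothelium, had r = 0.38 with Ddx4 (permutation p = 0.0283, adjusted p = 0.0634) and r = 0.75 with the endothelial cadherin gene Cdh5 (rho = 0.73, permutation p = 1e-05, adjusted p = 4.33e-05). It was the 1 member of 33 past the threshold with Cdh5, where the median r was 0.11, and 0.135% of all genes reached its r. On log2(TPM + 1) values 7 members passed with Cdh5 and 26 with Ddx4. Ifitm3, which many cell types express in response to interferon, had r = 0.17 with Ddx4 (permutation p = 0.388). Lin28b, the paralogue of Lin28a that also blocks let-7 processing, had r = -0.10 (permutation p = 0.563). Brdt, a bromodomain protein of the testis, had r = 0.31 (permutation p = 0.0492, adjusted p = 0.0999), and Tdrd6, at a few counts per library, had r = -0.11 (permutation p = 0.539).

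**Figure D2:**
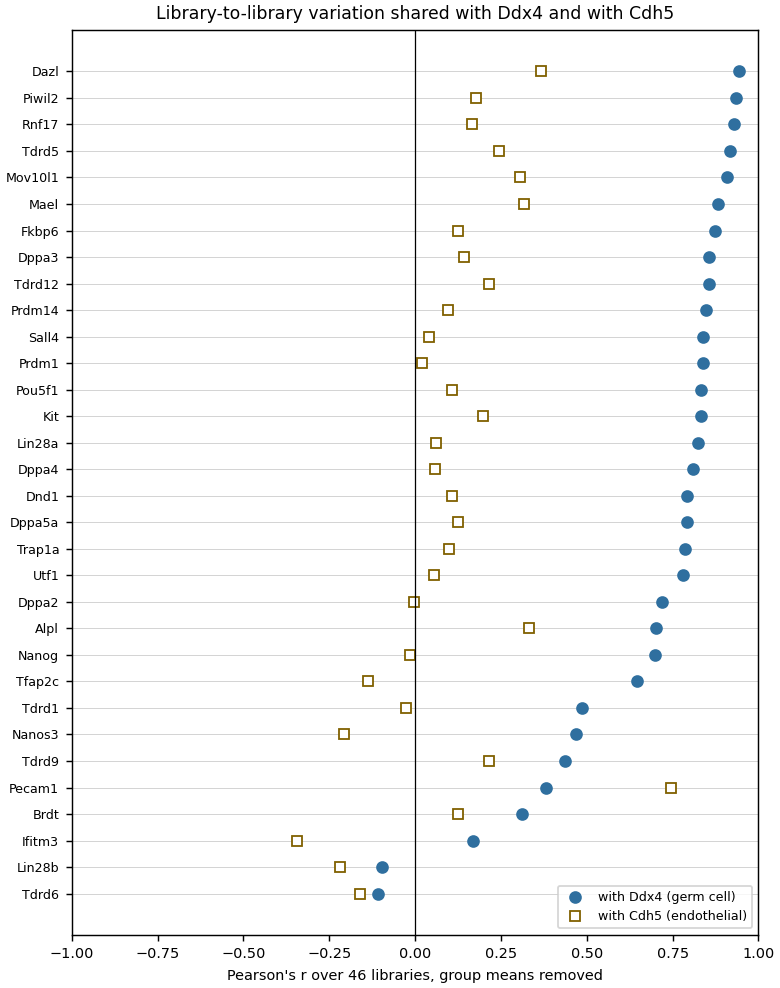
Pearson's r of each member with Ddx4 (filled circles) and with Cdh5 (open squares) over 46 libraries after the mean of each group was removed, on log2 CPM. Dazl, Piwil2 and Rnf17 lie above 0.9 with Ddx4, and Pecam1 is the member nearest to 1 with Cdh5, at 0.75.

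To find out how the members differ between the sexes where no homozygous mutation is present, the 9 XY libraries of WT and both heterozygotes were compared with the 9 XX libraries. Most pluripotency and specification genes were lower in XY gonads, and the licensing and most piRNA genes did not pass the test. In edgeR's quasi-likelihood test, 14 of 32 members were lower in XY and 0 were higher, where 25% of all 16407 genes tested were lower and 50.6% were called in either direction. The fold change was negative for 31 of the 32, with a median log2 fold change of -0.41 against -0.01 over all genes. By role, 7 of 10 pluripotency genes, 4 of 5 specification genes, 2 of 4 surface genes and 1 of 9 piRNA genes were lower. Neither of the 2 licensing genes passed. Fitted within single genotypes, the median log2 fold change of the members was -0.27 in WT, -0.55 in 1bp-ins-het and -0.51 in 3bp-del-het.

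Ifitm3 ran from 16.1 to 27.0 CPM in the 9 XY libraries (median 20.5) and from 35.8 to 57.6 CPM in the 9 XX libraries (median 47.4). The sexes did not overlap, and the log2 fold change of Ifitm3, XY over XX, was -1.23 ± 0.09 (SE; edgeR adjusted p = 8.03e-09). Tfap2c, a transcription factor that specifies germ cells, ran from 5.38 to 15.8 CPM in XY (median 9.76) and from 14.0 to 38.4 CPM in XX (median 24.1). Only the XY WT library at 15.8 CPM reached above the lowest XX library, and the log2 fold change of Tfap2c was -1.31 ± 0.19 (edgeR adjusted p = 3.83e-05). Lin28a ran from 13.0 to 33.4 CPM in XY (median 25.2) and from 30.1 to 72.4 CPM in XX (median 52.1). For Lin28a 8 of the 9 XY libraries lay below all XX libraries, and the log2 fold change was -1.08 ± 0.19 (edgeR adjusted p = 0.000247).

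The remaining specification genes overlapped more between the sexes. Dnd1, which shields germ cell mRNAs from microRNAs, ran from 8.09 to 17.6 CPM in XY (median 13.3) and from 15.3 to 36.0 CPM in XX (median 24.8), with a log2 fold change of -0.87 ± 0.17 (edgeR adjusted p = 0.000525). Nanos3, which keeps migrating germ cells alive, ran from 0.593 to 1.24 CPM in XY (median 0.934) and from 0.902 to 2.08 CPM in XX (median 1.38). Its log2 fold change was -0.68 ± 0.19 (edgeR adjusted p = 0.00778) at a level of few counts. Prdm14, a repressor that restores pluripotency in early germ cells, ran from 2.39 to 5.46 CPM in XY (median 3.14) and from 2.77 to 7.84 CPM in XX (median 5.64). Its log2 fold change was -0.67 ± 0.19 (edgeR adjusted p = 0.00654). Dnd1 lay below all XX libraries in 5 of 9 XY libraries and Nanos3 in 4. Prdm1, the partner of Prdm14 in specification, was at a median of 15.8 CPM in XY and 15.6 CPM in XX and did not pass (-0.11 ± 0.13, edgeR adjusted p = 0.483).

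Among the pluripotency genes, Nanog ran from 8.29 to 21.1 CPM in XY (median 13.2) and from 13.8 to 37.4 CPM in XX (median 21.5), with a log2 fold change of -0.78 ± 0.20 (edgeR adjusted p = 0.00427). Sall4, a zinc finger factor of the same network, ran from 20.6 to 48.5 CPM in XY (median 35.7) and from 36.7 to 84.4 CPM in XX (median 59.2; -0.74 ± 0.19, edgeR adjusted p = 0.00363). Pou5f1 ran from 24.7 to 70.5 CPM in XY (median 52.9) and from 49.3 to 107 CPM in XX (median 78.5). The call of Pou5f1 was the weakest of the 14 (-0.58 ± 0.20, edgeR adjusted p = 0.0246), and it was lost without any of XX 3bp-del-het replicate 2, XX WT replicate 1, XY 1bp-ins-het replicate 2 or XY WT replicate 3 (adjusted p up to 0.155 over all alternatives). Dppa2 and Dppa4, neighbours on chromosome 16 (GRCm38 with GENCODE M21, 48303908 to 48319723 and 48283733 to 48294237) whose products act together on chromatin, changed by -0.92 ± 0.21 and -0.71 ± 0.22 (edgeR adjusted p = 0.00154 and 0.0124). Dppa2 stood at a median of 4.49 CPM in XY and 8.78 CPM in XX, Dppa4 at 14.2 and 21.2 CPM. Lin28b was lower by a smaller amount (-0.38 ± 0.12, edgeR adjusted p = 0.0164). The other 3 pluripotency genes did not pass. Dppa3 had -0.445 ± 0.19 (edgeR adjusted p = 0.0634), while Utf1 with -0.12 ± 0.18 and Dppa5a with -0.03 ± 0.18 lay near 0.

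Licensing and piRNA genes also had negative fold changes, of which 1 passed. Ddx4 ran from 16.9 to 47.2 CPM in XY (median 32.8) and from 23.7 to 63.8 CPM in XX (median 40.9), with a log2 fold change of -0.48 ± 0.24 (edgeR adjusted p = 0.114). In the WT libraries alone, Ddx4 was at 34.1, 32.8 and 33.1 CPM in XY and at 53.0, 46.7 and 24.8 CPM in XX. Dazl ran from 16.1 to 84.8 CPM in XY (median 51.1) and from 31.5 to 80.1 CPM in XX (median 53.5), and did not pass (-0.31 ± 0.32, edgeR adjusted p = 0.445). Fkbp6, whose promoter is printed above, was the piRNA gene that passed. It ran from 9.71 to 23.8 CPM in XY (median 14.3) and from 14.0 to 42.1 CPM in XX (median 24.8; -0.66 ± 0.20, edgeR adjusted p = 0.0117). The other 8 tested piRNA genes lay between -0.56 ± 0.26 for Mael, a germ granule protein, and -0.15 ± 0.19 for Tdrd12, with Mov10l1, Rnf17, Piwil2, Tdrd5, Tdrd9 and Tdrd1 between them. Tdrd9 and Tdrd1, which carry the same motif as Fkbp6, had -0.26 ± 0.19 and -0.26 ± 0.13 (edgeR adjusted p = 0.279 and 0.123).

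Of the surface genes, Kit, the receptor of Kit ligand, ran from 43.6 to 73.4 CPM in XY (median 55.5) and from 47.4 to 98.2 CPM in XX (median 70.1) and did not pass (-0.32 ± 0.15, edgeR adjusted p = 0.0804). Pecam1 ran from 66.8 to 107 CPM in XY (median 87.0) and from 83.6 to 127 CPM in XX (median 119), and was lower (-0.37 ± 0.08, edgeR adjusted p = 0.000853). Alpl, the alkaline phosphatase long used to stain germ cells, was the single member with a positive fold change (0.11 ± 0.16, edgeR adjusted p = 0.61). Brdt and the X-linked Trap1a, an antigen gene of early germ cells, had -0.12 ± 0.14 and -0.05 ± 0.23. Other cell types also differed between these groups. Of 11 tested macrophage markers 10 were lower in XY, and the summed level of the list ran from 46.1 to 143 CPM in XY and from 75.8 to 132 CPM in XX. Of 14 endothelial markers 2 were higher and 4 lower, with a median summed level of 732 CPM in XY and 809 CPM in XX, and of 8 mesonephros markers 1 was higher and 5 lower (79.8 to 312 CPM against 252 to 312 CPM). Of 9 tested erythroid markers 0 were called by edgeR, and of 5 tested adrenal markers 1 was higher and 1 lower. No macrophage, endothelial or mesonephros marker had a median of 0, and their part in the sex difference of the members was not tested. Without the 4 libraries with high mesonephros or adrenal markers, 11 members were lower in XY and 0 higher (55.5% of all genes called), and Pou5f1, Fkbp6 and Dppa4 no longer passed. Without XY 3bp-del-het replicate 3 alone, the XY library with the highest Ddx4 and Dazl of the 9, 23 members were called. The share of all genes called in that fit is not given here.

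To describe the members relative to the germ cell signal, the same comparison was fitted with the log2 CPM of Ddx4 in each library as a covariate, an alternative chosen after the data had been seen. With it, 13 members were lower in XY and 1 was higher, where 47.5% of all genes were called, and the median log2 fold change of the members moved from -0.41 to -0.11. The 13 were those called before without Pou5f1, which had -0.24 (edgeR adjusted p = 0.0619). Tfap2c kept -0.996 (edgeR adjusted p = 2.5e-05), Lin28a -0.74 (3.2e-05), Dnd1 -0.59 (0.000179), Dppa2 -0.61 (0.00203) and Nanog -0.45 (0.0123). Ifitm3, which did not follow Ddx4 between libraries, stood at -1.13 (edgeR adjusted p = 3.5e-08). Most piRNA genes moved to near 0, with -0.09 for Mael, -0.06 for Mov10l1, 0.01 for Piwil2 and 0.00 for Tdrd5. Rnf17 stood at -0.004, Tdrd9 at -0.016 and Tdrd1 at -0.121, while Tdrd12 turned to 0.19 (edgeR adjusted p = 0.197). Fkbp6 remained called at -0.30 (edgeR adjusted p = 0.0165). Alpl was higher in XY by 0.37 (edgeR adjusted p = 0.0255). Dazl turned to 0.20 (edgeR adjusted p = 0.209). The covariate is itself measured with error, so this fit gives the members relative to Ddx4 and not per cell.

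**Figure D3:**
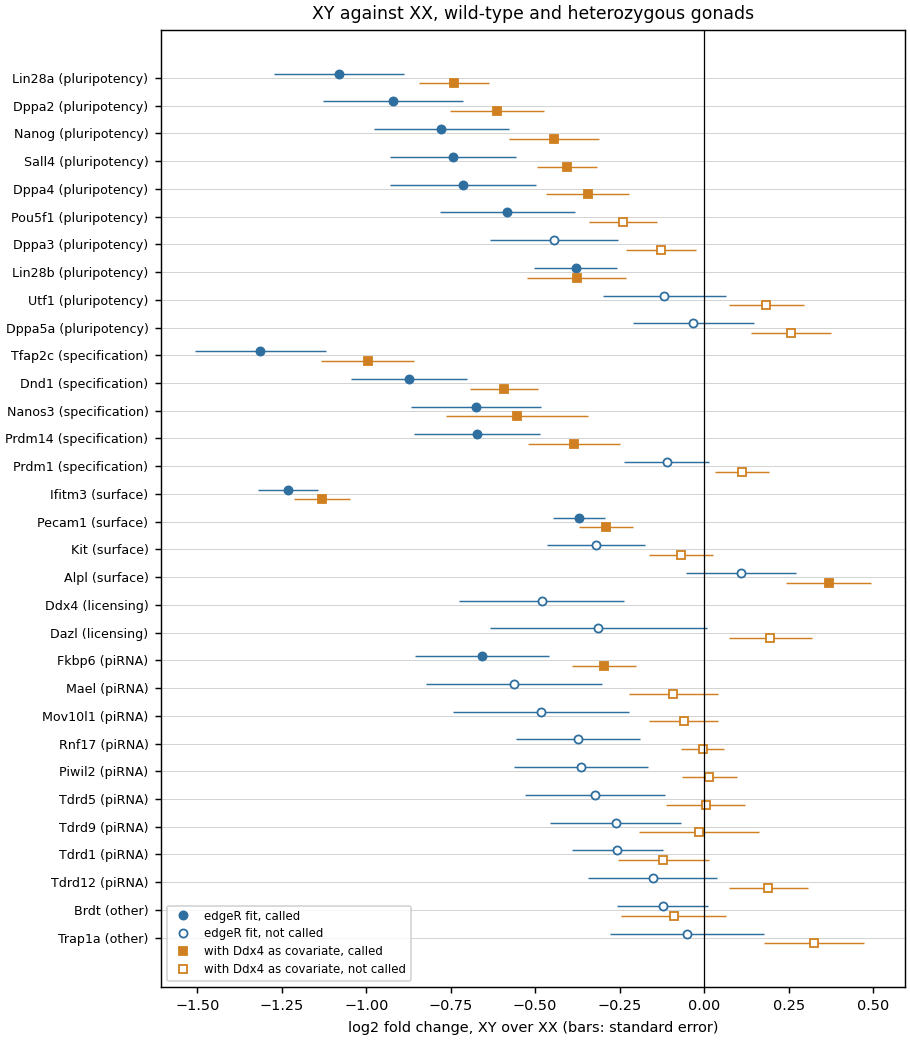
Log2 fold change of the 32 tested members, XY over XX in WT and heterozygous gonads, with standard errors, from the edgeR fit (circles) and from the fit with Ddx4 as a covariate (squares). Filled symbols passed an adjusted p of 0.05. Lin28a, Tfap2c and Ifitm3 lie farthest to the left in both fits, at -1.08, -1.31 and -1.23 without the covariate, and most piRNA genes move to near 0 with it.

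Some other genes of the pluripotency network, from a list that held no member, were also lower in XY. Of 11 tested, 6 were lower in XY and 0 higher, with a median log2 fold change of -0.48. Of all genes 25% were lower in this comparison and 50.6% were called in either direction. Tdh, a threonine dehydrogenase of pluripotent mouse cells, had -1.18 ± 0.17, Sox2, the partner of Pou5f1, -0.92 ± 0.21, Klf2 -0.82 ± 0.08 and Gdf3 -0.81 ± 0.23 (edgeR adjusted p = 3.52e-05, 0.00202, 1.83e-07 and 0.00712). Klf2 is also an endothelial gene. Esrrb and Nr0b1 were called lower as well, and Klf4, Tbx3, Tcl1, Tet1 and Zfp42 did not pass. Of 13 tested meiotic genes 6 were lower in XY. Rec8, a meiotic cohesin, was lower by far (-3.14 ± 0.14, edgeR adjusted p = 5.22e-11), while Stra8, which starts meiosis, had a median of 0 CPM in both sexes. Of 6 tested genes of male germ cells 4 were higher, among them the Nodal pathway genes Lefty2 (4.02 ± 0.29) and Lefty1 (3.07 ± 0.24), and Cdkn2b was lower (-2.25 ± 0.40). Kitl, the ligand of Kit made by somatic cells, was picked after its values were seen and stood at 187 to 403 CPM in XY and 588 to 958 CPM in XX, and the groups did not overlap (-1.18 ± 0.11, edgeR adjusted p = 2.63e-07).

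Within single genotypes the number of members with a called sex difference ran from 0 to 16. In WT, 2 members were lower in XY (5.94% of all genes lower), Ifitm3 with -0.87 ± 0.16 and Pecam1 with -0.61 ± 0.12 (edgeR adjusted p = 0.0151 and 0.0185). In 1bp-ins-het, 16 were lower (20.2% of all genes lower), in 3bp-del-het 2 (13.8%), in 3bp-del-hom 9 (15.1%) and in 3bp-12bp-del-hom 1 (5.14%). In 1bp-ins-hom 0 were called by edgeR (6.4% of all genes lower) and 2 by DESeq2 (14.2% of all genes called). In that genotype 8 members had an unadjusted p under 0.05, which was not counted over all genes. DESeq2 called 4 in WT (15.7% of all genes called) and 5 each in 3bp-del-het (27.7%) and 3bp-12bp-del-hom (14.7%). A single fit over 12 groups called 4 in WT (29.6%) and 11 in 3bp-del-het (33%). Leaving out the 4 libraries named above, 2 members were lower and 1 higher in WT, where the share of all genes called moved from 11% to 43.4%. The median log2 fold change of the members in WT was then -0.02. In 3bp-del-hom 8 were then lower (32.2% of all genes called). Tfap2c in the 3bp-del-het gonads was at 7.81, 5.38 and 11.03 CPM in XY and 15.7, 38.4 and 22.4 CPM in XX (-1.65 ± 0.40, edgeR adjusted p = 0.023). In the homozygotes of the same deletion it was at 12.7, 12.8, 11.3, 17.7 and 15.8 CPM in XY and at 28.9, 26.6, 16.7, 23.1 and 21.8 CPM in XX (-0.77 ± 0.16, edgeR adjusted p = 0.00376). The heterozygous groups did not overlap, and 1 XX 3bp-del-hom library lay below the highest XY 3bp-del-hom library.

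The next comparison asks whether the members move when XX gonads carry the homozygous mutations, in which testis genes are expressed. In the 15 XX homozygous libraries against the 9 other XX libraries, 3 of 32 members were called, 2 higher and 1 lower, where 49.3% of all 16662 genes were called (25.9% higher, 23.4% lower). The median log2 fold change of the members was 0.09, against 0.00 over all genes. Of the pluripotency genes 1 of 10 was called, Utf1, of the specification genes 1 of 5, Nanos3, and of the surface genes 1 of 4, Pecam1. Without XX 1bp-ins-hom replicate 4 the count was 5. Utf1 and Pecam1 were taken into the full account after their values were seen.

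Utf1 ran from 50.8 to 117 CPM in the XX homozygotes (median 77.2) and from 33.9 to 92.5 CPM in the other XX libraries (median 55.5), with a log2 fold change of 0.47 ± 0.13 (edgeR adjusted p = 0.00569). It was at 117, 92.0, 77.2, 80.7 and 91.0 CPM in XX 3bp-del-hom, at 83.6, 87.5, 92.5, 52.1 and 71.2 CPM in XX 1bp-ins-hom and at 50.8, 55.4, 73.9, 67.3 and 61.5 CPM in XX 3bp-12bp-del-hom, against 58.4, 53.8 and 33.9 CPM in XX WT. All 5 XX 3bp-del-hom libraries lay above the 3 XX WT libraries, and that group alone passed against WT (0.91 ± 0.20, edgeR adjusted p = 0.00707). Nanos3 ran from 1.36 to 2.52 CPM in the homozygotes (median 1.71) and from 0.902 to 2.08 CPM otherwise (median 1.38; 0.34 ± 0.13, edgeR adjusted p = 0.0339). The call of Nanos3 was lost in 11 of 32 alternatives (adjusted p up to 0.213), which included leaving out each of 8 single libraries. Over all genes the fold changes of this comparison fell with gene length (Spearman rho -0.295). Utf1 and Nanos3 are short, at percentiles 15.8 and 3.9 of gene length. With the length trend removed Utf1 had 0.379 (edgeR adjusted p = 0.0195) and Nanos3 0.205 (0.213).

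Pecam1 ran from 66.5 to 111 CPM in the XX homozygotes (median 92.3) and from 83.6 to 127 CPM in the other XX libraries (median 119; -0.29 ± 0.07, edgeR adjusted p = 0.00188). In XX 3bp-del-hom it was at 84.5, 89.5, 69.2, 66.5 and 82.7 CPM and in XX WT at 126, 120 and 114 CPM, with no overlap (-0.61 ± 0.10, edgeR adjusted p = 0.000641). It was also lower in XX 1bp-ins-hom (-0.33 ± 0.10, edgeR adjusted p = 0.0351), a call that was lost with the gene length trend removed and without the 4 libraries named above. Of the 14 endothelial markers, 6 were lower and 1 higher in the XX homozygotes, and their summed level was 564 to 828 CPM against 636 to 929 CPM. The lower ones included Ptprb (-0.76 ± 0.11), Tek (-0.33 ± 0.08), Tie1 (-0.30 ± 0.08) and Kdr (-0.30 ± 0.07), all receptors of endothelial cells. The part of the endothelium in the fall of Pecam1 was not tested.

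Members with the widest sex difference did not pass between the XX groups in the main edgeR fit. Tfap2c ran from 15.5 to 28.9 CPM in the homozygotes (median 21.6), within the range of the other XX libraries (-0.14 ± 0.16, edgeR adjusted p = 0.492). Lin28a likewise ran from 30.3 to 60.5 CPM (median 46.8; -0.14 ± 0.15, edgeR adjusted p = 0.469). Ifitm3 had a lower median, 39.2 CPM against 47.4 CPM, and 4 of the 15 homozygous libraries lay below all others. It did not pass in that fit (-0.22 ± 0.10, edgeR adjusted p = 0.0666). With the gene length trend removed Ifitm3 was called lower (-0.356 ± 0.09, edgeR adjusted p = 0.00262). Pou5f1 had 0.19 ± 0.15, Nanog 0.12 ± 0.15, Sall4 -0.02 ± 0.14, Dppa3 0.175 ± 0.15 and Kit -0.10 ± 0.12. Ddx4 was at a median of 40.9 CPM in both sets of libraries (0.06 ± 0.18, edgeR adjusted p = 0.814), and Dazl at 55.4 and 53.5 CPM (0.21 ± 0.23). With Ddx4 as a covariate 7 members were called (49.9% of all genes), Utf1, Mael, Prdm14, Nanos3 and Dppa5a higher and Pecam1 and Tdrd1 lower. Mael had 0.32 and Prdm14 0.22 in that fit (edgeR adjusted p = 0.00905 and 0.0319). Without the 4 libraries with high mesonephros or adrenal markers, 3 members were higher and 1 lower (48.9% of all genes called).

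Of 6 tested genes of male germ cells 4 were higher and 1 lower, with Lefty2 at 9.55 to 54.7 CPM in the homozygotes and 1.08 to 3.91 CPM in the other XX libraries (3.65 ± 0.33, edgeR adjusted p = 5.64e-08). Lefty1 had 3.04 ± 0.31. Of 13 meiotic genes 1 was lower, Rec8 (-0.71 ± 0.15, edgeR adjusted p = 0.000404). Of the 11 other pluripotency genes edgeR called 0. Kitl was lower, at 281 to 616 CPM against 588 to 958 CPM (-0.91 ± 0.08, edgeR adjusted p = 2.2e-08), while its receptor Kit did not pass.

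**Figure D4:**
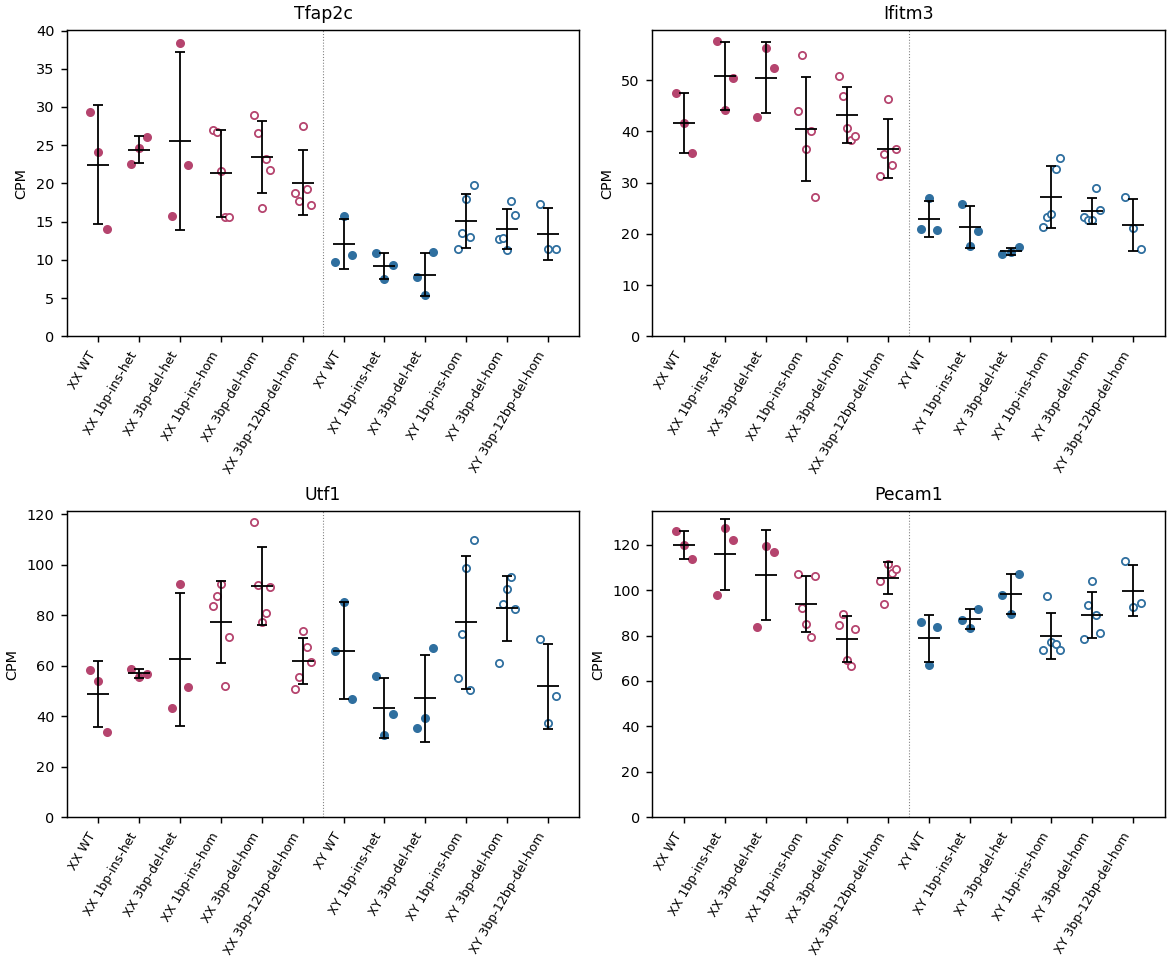
CPM of Tfap2c, Ifitm3, Utf1 and Pecam1 in every library, by group, with the mean and SD of each group. Points are filled for WT and heterozygous and open for homozygous libraries. Ifitm3 of the XY WT and heterozygous libraries, at 16.1 to 27.0 CPM, lies below that of all XX WT and heterozygous libraries, and Pecam1 of XX 3bp-del-hom, at 66.5 to 89.5 CPM, lies below that of XX WT.

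Set against XY gonads without a homozygous mutation, the XX homozygotes had higher levels of most pluripotency and specification genes. In this comparison 20 of 32 members were higher and 0 lower, where 21.9% of all 16521 genes were higher and 43.7% were called in either direction. The median log2 fold change of the members was 0.53, against 0.02 over all genes. By role, 9 of 10 pluripotency genes, 5 of 5 specification genes, 1 of 4 surface genes, 1 of 2 licensing genes and 4 of 9 piRNA genes were higher. The XY libraries are the same 9 as in the sex comparison, so both sets of values share their error. Tfap2c had 1.17 ± 0.15, Dnd1 1.02 ± 0.13, Nanos3 1.01 ± 0.12 and Ifitm3 1.01 ± 0.10 (edgeR adjusted p = 2.38e-06, 3.65e-06, 1.9e-06 and 2.61e-07). All 15 XX homozygous libraries lay above all 9 XY libraries for Dnd1, Nanos3 and Ifitm3, and 13 of 15 did for Tfap2c, Lin28a and Pou5f1. How many of all genes separate in this way was not counted.

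Prdm14 had 0.93 ± 0.14, Lin28a 0.94 ± 0.14, Nanog 0.90 ± 0.14, Dppa2 0.86 ± 0.17, Dppa4 0.85 ± 0.15, Pou5f1 0.77 ± 0.16 and Sall4 0.72 ± 0.14. The piRNA genes called were Mael (0.90 ± 0.19), Fkbp6 (0.81 ± 0.14), Rnf17 (0.36 ± 0.12) and Piwil2 (0.34 ± 0.13), and of these Piwil2 lost its call in 20 of 32 alternatives, 16 of which left out a single library. The call of Dppa5a (0.35 ± 0.14) was lost in 24 and that of Prdm1 (0.24 ± 0.09) in 10. Ddx4 was higher by 0.54 ± 0.17 (edgeR adjusted p = 0.0161) and Dazl, at 0.52 ± 0.26, did not pass (edgeR adjusted p = 0.114). With Ddx4 as a covariate, 16 members were higher and 1 lower (38.9% of all genes called). Dazl was the lower one (-0.19, edgeR adjusted p = 0.0329), and Tfap2c (0.97), Nanos3 (0.97) and Ifitm3 (1.00) were the highest. Without the 4 libraries named above, 16 were higher and 0 lower (44.8% of all genes called), and Ddx4, Rnf17, Piwil2, Prdm1 and Dppa5a no longer passed. In these gonads 4 of 5 testis genes of the somatic list were lower and all 5 ovary genes higher than in the XY gonads, and 8 of 11 other pluripotency genes were higher.

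**Figure D5:**
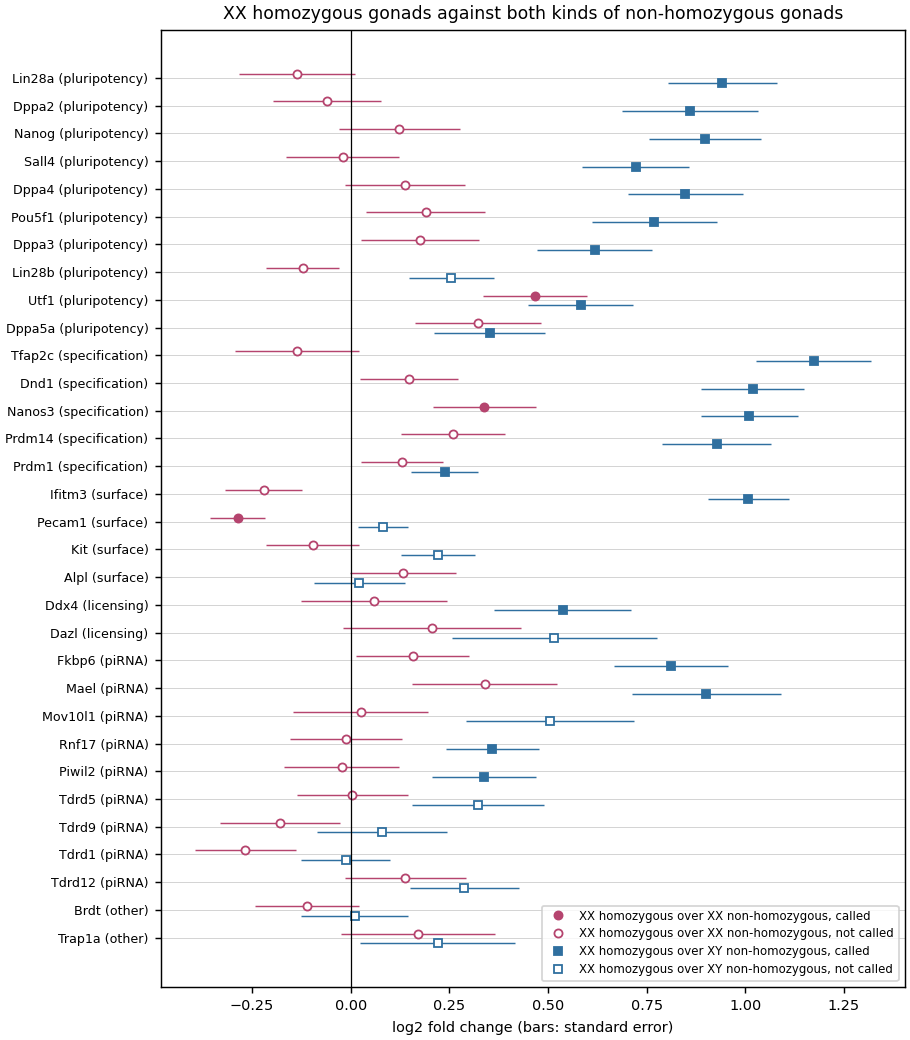
Log2 fold change with standard error of the 32 tested members in XX homozygous gonads, over XX gonads without a homozygous mutation (circles) and over XY gonads without one (squares). Filled symbols passed an adjusted p of 0.05. Circles lie near 0, with Utf1, Nanos3 and Pecam1 filled, and 20 of the squares are filled, up to 1.17 for Tfap2c.

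On the XY background the homozygous mutations changed few genes. Of all 16270 genes tested 2.22% were called between the 13 XY homozygous and the 9 other XY libraries, and 1 of 32 members, Tfap2c, was higher (1.19% of all genes higher) and 0 lower. Tfap2c ran from 11.3 to 19.8 CPM in the homozygotes (median 13.0) and from 5.38 to 15.8 CPM otherwise (median 9.76), with 5 of 13 homozygous libraries above all others. Its log2 fold change was 0.55 ± 0.14 at the edge of the threshold (edgeR adjusted p = 0.0496), and the call was lost in 24 of 30 alternatives (adjusted p up to 0.153), 19 of which left out a single library. The fold change was positive for 29 of 32 members, with a median of 0.31 against 0.01 over all genes, and 15 had an unadjusted p under 0.05. How many of all genes had such a p was not counted. Most members vary together between libraries, so these counts are not of independent genes. In fits against XY WT alone the median was -0.32 in 1bp-ins-het and -0.40 in 3bp-del-het, both part of the pooled reference. It was 0.13 in 1bp-ins-hom, 0.19 in 3bp-del-hom and 0.03 in 3bp-12bp-del-hom. In the pooled comparison Prdm14 had 0.63 ± 0.19 (edgeR adjusted p = 0.0816), Dnd1 0.49 ± 0.17 (0.13), Pou5f1 0.43 ± 0.19 (0.202) and Ddx4 0.28 ± 0.24 (0.547). With Ddx4 as a covariate the median was 0.15 and Tfap2c was the member called (1.36% of all genes called). Without the 4 libraries named above 0 members were called by edgeR (1.06% of all genes called).

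The difference between the effects in XX and in XY gonads was tested as an interaction over all 46 libraries. In it 3 of 32 members were called, each more negative in XX, where 7.78% of all 17033 genes were called in that direction and 19.5% in either. Tfap2c had -0.68 ± 0.22 (edgeR adjusted p = 0.0235), Ifitm3 -0.49 ± 0.15 (0.0139) and Pecam1 -0.30 ± 0.10 (0.0265). Tfap2c had fold changes of -0.14 in XX and 0.55 in XY, and Ifitm3 of -0.22 in XX and 0.28 in XY, so in both genes the 2 effects had opposite signs and the distance between the sexes was smaller among homozygotes. The reference in each sex pools WT with both heterozygotes, and the members of the XY heterozygotes had negative medians against WT, as given above. Ifitm3 had medians of 39.2 CPM in XX and 23.3 CPM in XY homozygotes, against 47.4 and 20.5 CPM otherwise. Pecam1 had -0.29 in XX and 0.02 in XY. The same 3 genes were called with Ddx4 as a covariate (21.6% of all genes called). Without the 4 libraries named above Ifitm3 and Pecam1 passed (28.1% of all genes called) and Tfap2c had -0.58, as it also lost its call without XX 3bp-del-het replicate 2. For Utf1 the interaction was 0.04 ± 0.22 (edgeR adjusted p = 0.931).

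Single mutant groups against the WT of their own sex gave few calls, and the groups of a sex share their 3 WT libraries. In XX, Pecam1 in 1bp-ins-hom (32.3% of all genes called) and Pecam1 and Utf1 in 3bp-del-hom (44.8%) were the 3 calls. Without XX WT replicate 3 there were 9, and the share of all genes called in those fits is not given here. There were 3 without the 4 libraries named above, all in 3bp-del-hom, 2 higher and 1 lower, where 48.3% of all genes were called. In XX 1bp-ins-het (0% of all genes called), 3bp-del-het (10.9%) and 3bp-12bp-del-hom (25.6%) edgeR called 0 members, with 0, 1 and 2 at an unadjusted p under 0.05, and DESeq2 also called 0 in each. In XY, edgeR and DESeq2 called 0 members in all 5 mutant groups, and edgeR 0 also without the 4 libraries. The members at an unadjusted p under 0.05 were 5 in 1bp-ins-het, 1 in 3bp-del-het, 1 in 1bp-ins-hom, 5 in 3bp-del-hom and 1 in 3bp-12bp-del-hom. By adjusted p edgeR called 0% of all genes in the first 4 of these and 0.013% in the last. The share of all genes at an unadjusted p under 0.05 was not counted in XX or XY. The median log2 fold change of the members was -0.32 in XY 1bp-ins-het and -0.40 in XY 3bp-del-het, and 0.13, 0.19 and 0.03 in the 3 homozygotes.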

How the data were processed

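The authors deposited 2 tables of the whole series, one of estimated counts per gene and one of TPM, which scales estimated counts by gene length and library total. The submitters' processing notes name the build mm10. The aligner, quantifier, annotation release and strand setting were not stated in the sources used. Of the deposited estimated counts 8% to 8.9% per library were not whole and were rounded. There was 1 column of per-sample values in each that had no matching sample and was not used. Libraries were made from 140 ng of RNA at E12.5. The 34 members and all lists were chosen with earlier results of these data known.

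Tests used edgeR 4.0.16 (R 4.3.3; TMM scaling, filterByExpr, robust quasi-likelihood F test) on the libraries of the groups compared, with Benjamini-Hochberg adjustment over all genes tested and a threshold of 0.05. Pooled comparisons contrast the equally weighted means of the groups, and standard errors are the log2 fold change over the root of F. CPM were scaled by TMM over all 46 libraries, and log2 CPM used a prior count of 2. The deposited TPM were used for levels between genes. Alternatives were RLE scaling, no filter, DESeq2 1.42.0, a single fit over 12 groups, a replicate block, removal of the gene length trend and leaving out each library. The Ddx4 covariate and the fit without 4 libraries were added after the data had been seen. Code was tested on simulated data. No pair of libraries of a group agreed within sampling noise (71 pairs, lowest chi-square per degree of freedom 13.3). Full values were given for members called in a pooled comparison, up to 12 by smallest adjusted p, and for Pou5f1, Nanog, Dppa3, Ddx4, Dazl and Kit, and for up to 4 called genes of each other list. Utf1, Pecam1 and Kitl fall outside this rule and were taken after their values were seen.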

Additional observations from a re-analysis of the deposited data

Results flagged for a closer look

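Of 90 groups of 5 libraries examined (18 members in 5 groups), 9 held a library far from the other 4, where chance flags about 1 in 20 groups. Members that vary together tend to be flagged together, so the 90 groups are not independent. The number flagged was not tested against chance. XX 3bp-12bp-del-hom replicate 3 was high for Tfap2c (27.6 CPM, others 17.2 to 19.2), Dnd1 (30.3 CPM, others 20.2 to 21.8), Sall4 (69.1 CPM, others 48.6 to 54.4), Dppa2 (10.2 CPM, others 5.99 to 7.02) and Pou5f1 (109 CPM, others 75 to 84.3). Its Ddx4, at 32.3 CPM, was within the 27.9 to 40.9 CPM of its group. XX 1bp-ins-hom replicate 4 was low for Prdm14 (4.51 CPM, others 7.79 to 9.02), Fkbp6 (17.8 CPM, others 30.4 to 33.8) and Pou5f1 (47.2 CPM, others 89.2 to 103), and had the lowest Ddx4 of its group, 25.6 CPM. XY 1bp-ins-hom replicate 2 was high for Pecam1 (97.5 CPM, others 73.6 to 77).

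The effect of homozygosity differed between XX and XY gonads for Tfap2c (interaction -0.68 on the log2 scale), Ifitm3 (-0.49) and Pecam1 (-0.30), each by edgeR's test of the interaction.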

How the results depend on the processing

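The count of members called between XY homozygous and other XY gonads, 1 in the report, was 0 with RLE scaling, without the filter, with the replicate block, with the length trend removed and without the 4 libraries with high mesonephros or adrenal markers, and 2 with DESeq2 and with a single fit over 12 groups. For XX mutant groups against WT the count of 3 became 7 with DESeq2, 6 with the single fit and 18 with the replicate block. These calls lay in 1bp-ins-hom and 3bp-del-hom. Of all genes DESeq2 called 35.1% and 44% there, the single fit 36% and 39.5%, and the block 30.3% and 51.6%. Between the XX groups the count of members rose from 3 to 7 with the Ddx4 covariate. Leaving out 1 library gave 13 to 23 members for the sex difference, 2 to 5 between the XX groups, 0 to 2 between the XY groups, 17 to 25 for XX homozygous against XY gonads, 2 to 4 for the interaction, 27 to 38 for the sex difference within genotypes (30 in all), 2 to 9 for XX mutants against WT and 0 to 0 for XY mutants. For the fits without 1 library the share of all genes called is not given here. With the Ddx4 covariate Dazl changed sign to 0.196, -0.116 and -0.194 in the sex, XY and XX against XY comparisons, and Piwil2 and Kit to -0.005 each in the last. Leaving out 1 library gave Ddx4 between the XX groups values from -0.04 to 0.212, with the sign reversed in 4 cases, and the interaction of Dazl values from -0.339 to 0.164, reversed in 12. Genes called between the XY groups numbered 362, and 1092 with DESeq2, 1085 with the single fit, 143 without the filter, 104 with the block, 139 with the length trend removed and 175 without the 4 libraries. The cause was not tested. Gene length, taken from the ratio of counts to TPM, was related to the fold changes over all genes. Spearman rho was -0.295 between the XX groups, -0.424 between the XY groups and -0.334 for XX homozygous against XY gonads. It was 0.037 for the sex difference and -0.076 for the interaction. Same-numbered libraries did not deviate together in every pair in any of 16 comparisons (median r -0.03), so the replicate numbers were not read as pairs. With the block the counts in the other results were 14, 3, 21, 3, 25 and 0, and within 3bp-del-hom the sex difference was called for 4 members in place of 9.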
